A study of Homo sapiens with 8 samples.

Results

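The MHC class II genes and their master regulator CIITA were described in MM1.S, an established human multiple myeloma line whose cells resemble plasma cells. The set holds 10 genes chosen by name, with earlier results of these data known: CIITA, CD74, HLA-DRA, HLA-DRB1, HLA-DPA1, HLA-DPB1, HLA-DQA1, HLA-DQB1, HLA-DMA and HLA-DMB. All 10 were among the 16295 genes listed, and all 10 passed the filter on low counts, which left 14164 genes for testing. All 8 libraries came from this line, grown in RPMI medium with serum: 2 from cells given DMSO alone (the solvent) for 24 h, and 2 each from cells given MS177, MS177N1 or C24 at 0.5 uM for the same time. As background, MS177 degrades the histone methyltransferase EZH2 by recruiting the ubiquitin ligase receptor CRBN to it, C24 is the EZH2 inhibitor it was built from, and MS177N1 is a related control compound that does not degrade EZH2. The labels do not say that the 2 libraries of a group came from separate cultures, and a p-value here reflects only how these libraries varied, which may be technical.

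MHC class II molecules are pairs of an alpha and a beta chain that hold peptides from the endosome at the cell surface for CD4 T cells. CD74, the invariant chain, fills the groove of new class II molecules and guides them to the endosome, where HLA-DM exchanges its last fragment for peptide. CIITA binds no DNA itself but docks on RFX, CREB and NF-Y proteins at the X and Y boxes upstream of these genes. Plasma cells usually switch CIITA off when they form, with PRDM1 (BLIMP-1) as a known repressor, while B cells, dendritic cells and macrophages keep class II on.

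The stretches before the genes are shown because CIITA acts through elements there, and 8 of the 10 genes matched the promoter table from RefSeq (GRCh38.p14). The 250 bases before each start were searched on both strands for AGNNACNGA, a core of the X box that RFX binds, and for ATTGG, the core of the Y box that NF-Y binds. The lines give bases -150 to -31 from the start, with matches in capitals (a Y box on the other strand reads CCAAT).
HLA-DRB1 (chr6:32589879-32589998, minus strand): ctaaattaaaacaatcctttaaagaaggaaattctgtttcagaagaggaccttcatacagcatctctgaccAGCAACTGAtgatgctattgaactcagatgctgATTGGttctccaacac
HLA-DQA1 (chr6:32637256-32637375, plus strand): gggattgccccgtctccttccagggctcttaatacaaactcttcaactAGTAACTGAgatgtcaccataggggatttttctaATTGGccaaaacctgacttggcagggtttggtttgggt
HLA-DQB1 (chr6:32666688-32666807, minus strand): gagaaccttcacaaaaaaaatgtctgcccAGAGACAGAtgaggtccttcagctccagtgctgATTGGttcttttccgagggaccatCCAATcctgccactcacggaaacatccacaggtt
HLA-DMA (chr6:32953128-32953247, minus strand): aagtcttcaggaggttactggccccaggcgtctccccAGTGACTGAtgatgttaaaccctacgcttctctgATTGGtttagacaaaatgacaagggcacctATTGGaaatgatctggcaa
HLA-DMB (chr6:32941059-32941178, minus strand): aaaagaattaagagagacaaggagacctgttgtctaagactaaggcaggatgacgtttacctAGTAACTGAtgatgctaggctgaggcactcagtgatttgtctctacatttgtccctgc
CD74 (chr5:150412941-150413060, minus strand): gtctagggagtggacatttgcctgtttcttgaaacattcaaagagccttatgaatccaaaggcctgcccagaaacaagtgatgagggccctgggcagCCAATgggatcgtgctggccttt
HLA-DRB1, HLA-DQA1, HLA-DQB1 and HLA-DMA each held the X core on the strand of the gene, followed by a Y core that began 33 or 34 bases after the start of the X core. An X core on the strand of the gene, followed within 50 bases by a Y core on either strand, preceded 0.424% of 35114 starts of this length. On either strand, AGNNACNGA alone was present in 12.3% of these starts and ATTGG alone in 32.0%. The letters and the gap were chosen with the promoters of the set in view, so these shares are no independent background. HLA-DMB held the X core, and its Y core lay nearer the start than the printed bases. The HLA-DPA1 gene has 2 listed starts, of which 1 held the X core and neither the Y core. HLA-DPB1 and CD74 held a Y core and no match to these X letters. These matches are letters in a window, and binding was not measured.

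The labelled cell type was checked against its markers. In DMSO, the plasma-cell genes SDC1 (CD138), IRF4, XBP1 and PRDM1 stood at 28802 ± 506, 16765 ± 432, 31704 ± 382 and 6165 ± 122 normalized reads (mean ± SD, n = 2), where a normalized read is a recovered read divided by the library's size factor. Of 12 B cell markers 7 were listed, and MS4A1 and PAX5 were not among them. CD79B, a chain of the B cell receptor, CR2, a complement receptor, and FCRLA, an Fc receptor-like protein, stood at 771 ± 19.96, 369 ± 31.5 and 283 ± 53.5 normalized reads in DMSO. Each library held between 20000665 and 26619099 reads over the listed genes. EZH2 mRNA was 2681 ± 8.10 in DMSO, 2850 ± 43.3 with MS177, 2722 ± 1.82 with MS177N1 and 2689 ± 33.7 with C24. MS177 and DMSO differed widely over the transcriptome, with 57.9% of genes called at a limma adjusted p under 0.05, against 0.0353% with MS177N1 (all of them lower) and 0.0918% with C24 (0.0212% higher and 0.0706% lower).

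Class II genes were already transcribed in the DMSO cells, at levels that spread over 4 orders of magnitude. Per kilobase of transcript, the mean normalized reads in DMSO were 32541 for CD74, 5052 for HLA-DRA, 1015 for HLA-DPA1, 513 for HLA-DMA, 431 for HLA-DPB1, 226 for HLA-DRB1, 119 for CIITA and 88.6 for HLA-DMB. HLA-DQB1 and HLA-DQA1 were lowest, at 6.10 and 2.79. Only those last 2 overlapped between their DMSO libraries (4.65 and 7.55 against 0 and 5.58 per kilobase). With MS177 the order was kept except that HLA-DMB (252) moved above CIITA (241) and HLA-DQA1 (26.7) above HLA-DQB1 (20.3), both within the spread of the libraries. HLA-DMA (759) and HLA-DPB1 (756) also overlapped there. Whether the HLA alleles of these cells match the reference was not examined, so levels of different HLA genes compare only roughly.

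MS177 was set against DMSO to find the transcripts that differ after treatment with the degrader. All 10 genes were called higher with MS177 (limma, Benjamini-Hochberg adjusted p from 5.25e-12 to 0.0227), where 28.9% of all genes tested were called higher. Their median log2 fold change was 1.11, beside 0.00 for all genes tested. The scaling by size factors holds that all-gene median near 0 by construction. Under total-read scaling the medians were 1.20 for the set and 0.09 for all genes tested. In each of the 10 both MS177 libraries lay above the other 6, as was the case for 33.2% of all genes tested. Against DMSO alone the share of all genes with both MS177 libraries higher was 38.5%. A call with at least a 2-fold rise was reached by 6 of the 10 (CIITA, HLA-DRA, HLA-DRB1, HLA-DQA1, HLA-DQB1 and HLA-DMB), and by 9.63% of all genes tested. The set was chosen with earlier results of these data known, so setting it beside these shares is a description and no test. The genes rose by unequal amounts, from 0.30 on the log2 scale for CD74 to 3.57 for HLA-DQA1.

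CIITA, the coactivator, had normalized reads of 543 and 570 in DMSO, 1111 and 1135 with MS177, 616 and 588 with MS177N1, and 517 and 551 with C24. Both MS177 libraries stood at 1111 or above and the other 6 between 517 and 616, with no overlap. CIITA rose 2.02-fold with MS177 against DMSO (log2 fold change 1.01, SE 0.08, limma adjusted p = 3.34e-08). CIITA overlaps DEXI on the opposite strand, and the library kit named in the labels does not mark strand. Of the 31-base words of CIITA transcripts 18.9% also occur in other gene models, mostly the overlapping AC133065.3. DEXI, a gene of unsettled role, fell by 0.92 (SE 0.10).

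HLA-DRA encodes the alpha chain of HLA-DR, the most abundant class II molecule, and varies little between people. It had normalized reads of 6472 and 6460 in DMSO, 15430 and 14536 with MS177, 6709 and 6798 with MS177N1, and 7231 and 7162 with C24. The lower MS177 library, at 14536, stood far above the highest of the others, at 7231. HLA-DRA rose 2.32-fold with MS177 (log2 1.21, SE 0.04, limma adjusted p = 5.25e-12), the smallest SE in the set.

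HLA-DRB1, its beta chain partner, had normalized reads of 273 and 283 in DMSO, 685 and 628 with MS177, 263 and 270 with MS177N1, and 320 and 306 with C24. The MS177 libraries did not overlap the other 6. It rose 2.36-fold with MS177 (log2 1.24, SE 0.10, limma adjusted p = 5.54e-08). The values are uncertain, because 24.6% of the 31-base words of the HLA-DRB1 transcript also occur in transcripts of other genes in GENCODE 29, mostly HLA-DRB5. For HLA-DRA and CD74 that share was 0%. HLA-DRB3, HLA-DRB4 and HLA-DRB5 were not among the genes listed. Per kilobase HLA-DRA exceeded HLA-DRB1 by 21.7 to 24.5 times in the 6 other libraries and by 21.6 and 22.2 times with MS177, so the ranges overlapped.

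CD74, the invariant chain, was the most abundant member and took 67.1% to 78.9% of the reads of the set. It had normalized reads of 38509 and 35556 in DMSO, 48704 and 42454 with MS177, 37344 and 37938 with MS177N1, and 39026 and 39559 with C24. The MS177 libraries did not overlap the other 6, but they differed from each other by more than the DMSO libraries did. CD74 rose 1.23-fold with MS177 (log2 0.30, SE 0.06, limma adjusted p = 0.00058). Without MS177 replicate 1 or 2 its log2 fold change was 0.20 or 0.40. The ratio of CD74 to HLA-DRA per kilobase was 6.07 to 6.69 in the other 6 libraries and 3.55 and 3.29 with MS177.

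**Figure D1:**
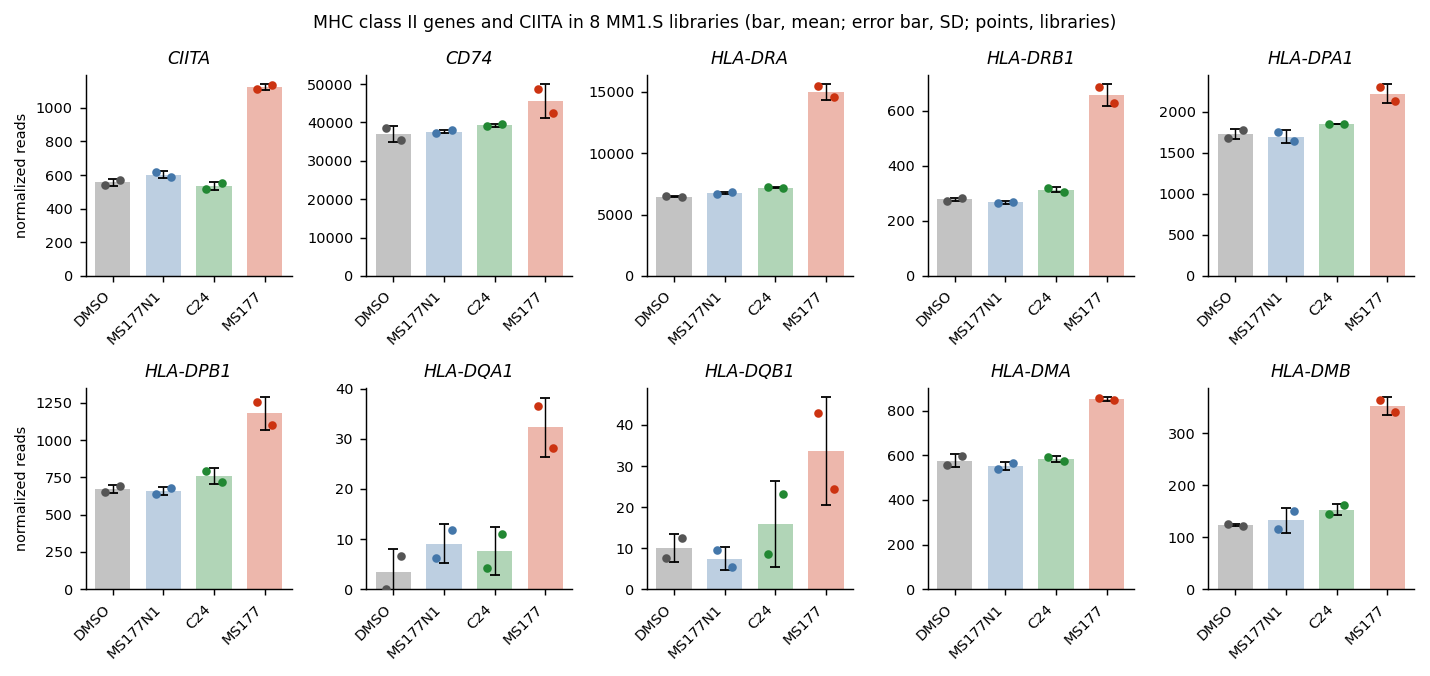
Normalized reads (y axis, linear from 0) of each of the 10 genes in DMSO, MS177N1, C24 and MS177 (x axis), with the mean as a bar, the SD as an error bar and the 2 libraries as points. In each panel both MS177 points lie above the other 6, by a wide margin for HLA-DRA (15430 and 14536 against at most 7231) and a narrow one for HLA-DQB1 (24.3 against 23.2).

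HLA-DP, another peptide-presenting pair, had a smaller fold change in its alpha than in its beta chain. HLA-DPA1 had normalized reads of 1686 and 1774 in DMSO, 2304 and 2137 with MS177, 1759 and 1640 with MS177N1, and 1855 and 1855 with C24. HLA-DPB1 had 652 and 693 in DMSO, 1255 and 1103 with MS177, 640 and 680 with MS177N1, and 796 and 721 with C24. HLA-DPA1 rose 1.28-fold (log2 0.36, SE 0.06, limma adjusted p = 0.000147) and HLA-DPB1 1.75-fold (log2 0.81, SE 0.09, limma adjusted p = 9.70e-07). The ratio of HLA-DPA1 to HLA-DPB1 per kilobase was 2.13 to 2.52 in the other 6 libraries and 1.68 and 1.77 with MS177. These genes overlap on opposite strands in GENCODE 29, so reads of the shared stretch cannot be told apart.

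HLA-DM, the peptide exchange factor, also differed between its chains. HLA-DMA had normalized reads of 557 and 596 in DMSO, 857 and 847 with MS177, 540 and 567 with MS177N1, and 592 and 575 with C24. HLA-DMB had 125 and 122 in DMSO, 364 and 340 with MS177, 115 and 150 with MS177N1, and 145 and 161 with C24. HLA-DMA rose 1.48-fold (log2 0.56, SE 0.08, limma adjusted p = 2.41e-05) and HLA-DMB 2.83-fold (log2 1.5, SE 0.16, limma adjusted p = 7.09e-07). Their ratio per kilobase was 4.43 to 6.07 in the other 6 libraries and 2.93 and 3.10 with MS177. The ratios are a description, and their differences between groups were not tested. A gene model that joins both genes, AL645941.2, holds 13.2% of the 31-base words of HLA-DMA and 30.0% of those of HLA-DMB, and how reads there were assigned is not given in the sources used here. HLA-DMA also overlaps BRD2 on the opposite strand.

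**Figure D2:**
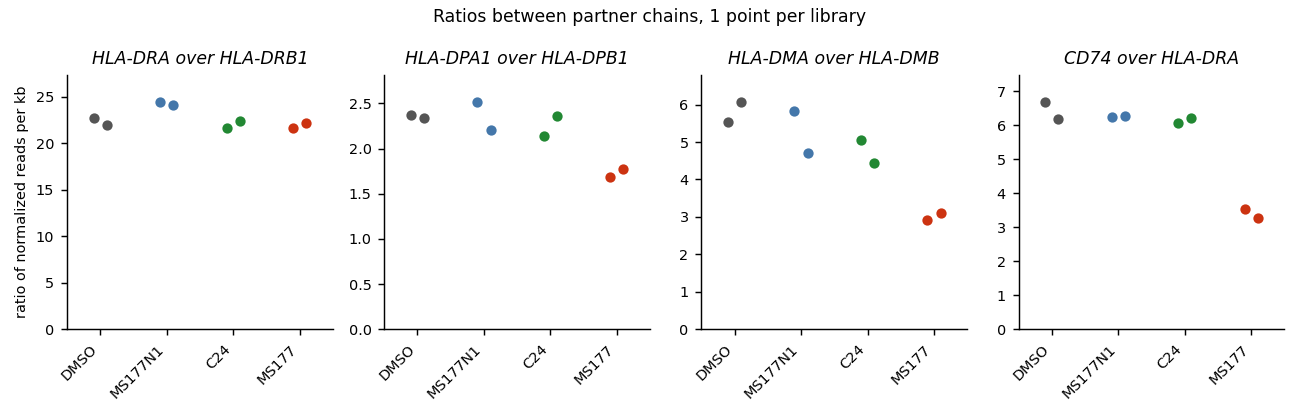
Ratio of normalized reads per kilobase (y axis, linear from 0) between partner genes in each library (points) by group (x axis). HLA-DRA over HLA-DRB1 stays between 21.6 and 24.5 in all 8 libraries, whereas HLA-DPA1 over HLA-DPB1, HLA-DMA over HLA-DMB and CD74 over HLA-DRA are lower in both MS177 libraries than in the other 6.

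HLA-DQ, the pair with the lowest counts here, gave only a few reads. HLA-DQA1 had normalized reads of 0 and 6.73 in DMSO, 36.4 and 28.1 with MS177, 6.29 and 11.8 with MS177N1, and 4.28 and 11.1 with C24. A count of 0 in the first DMSO library allows up to 3.30 normalized reads there, for counting error only. HLA-DQB1 had 7.70 and 12.5 in DMSO, 42.9 and 24.3 with MS177, 9.44 and 5.46 with MS177N1, and 8.56 and 23.2 with C24. HLA-DQA1 was called higher with MS177 (log2 3.57, SE 0.84, limma adjusted p = 0.00187), and its fold rests on the pseudocount and the DMSO library at 0. Without DMSO replicate 1 the log2 fold change of HLA-DQA1 was 2.09, and without DMSO replicate 2 it was 5.04. HLA-DQB1 was called higher (log2 1.62, SE 0.57, limma adjusted p = 0.0227) but not without DMSO replicate 1 (adjusted p = 0.126) or MS177 replicate 1 (adjusted p = 0.169). Both are uncertain for a second reason: 15% of the 31-base words of HLA-DQA1 occur in HLA-DQA2, and 15.5% of those of HLA-DQB1 occur in transcripts of other genes.

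Summed over the 10 genes, the set took 0.204% and 0.215% of reads in DMSO, 0.330% and 0.296% with MS177, 0.214% and 0.216% with MS177N1, and 0.222% and 0.225% with C24. Without CD74 the summed normalized reads were 10315 and 10518 in DMSO, against 22086 and 20779 with MS177. MS177 replicate 1 was the higher of its pair in 9 of 10 genes, with CIITA the exception. In bulk RNA, more cells with class II transcripts and more class II RNA per cell cannot be told apart.

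MS177N1 against DMSO tested the control compound at the same dose and time. limma called 0 of 10 genes, where 0.0353% of all genes were called, and limma voom also called 0. The median log2 fold change was 0.00, and in 2 of 10 genes, CIITA and HLA-DRA, both MS177N1 libraries lay above both DMSO libraries, as in 16.7% of all genes. In HLA-DRB1 both lay below. Only 1 gene had an unadjusted p under 0.05, HLA-DQA1 (log2 1.80, 95% confidence interval 0.01 to 3.59, limma adjusted p = 0.965), whose groups overlapped. Its log2 difference was 0.32 without DMSO replicate 1 and 3.27 without DMSO replicate 2. For CIITA the interval was -0.06 to 0.29, for HLA-DRA -0.03 to 0.16 and for CD74 -0.10 to 0.15. These 3 intervals end below the changes measured with MS177, whereas that of HLA-DQA1 does not.

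C24 against DMSO tested the parent inhibitor. limma again called 0 of 10 genes, where 0.0918% of all genes were called, and limma voom called 0. In 6 of 10 genes both C24 libraries lay above both DMSO libraries, which was so for 18.0% of all genes tested. The 6 were CD74, HLA-DRA, HLA-DRB1, HLA-DPA1, HLA-DPB1 and HLA-DMB. Their log2 differences were small, from 0.09 for CD74 to 0.31 for HLA-DMB. HLA-DRA (log2 0.15, 95% confidence interval 0.06 to 0.25, limma adjusted p = 0.604) was the only gene of the set with an unadjusted p under 0.05. CIITA differed by -0.06 (interval -0.23 to 0.11), and its C24 and DMSO libraries overlapped. These comparisons share the DMSO libraries, so their values are not independent.

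**Figure D3:**
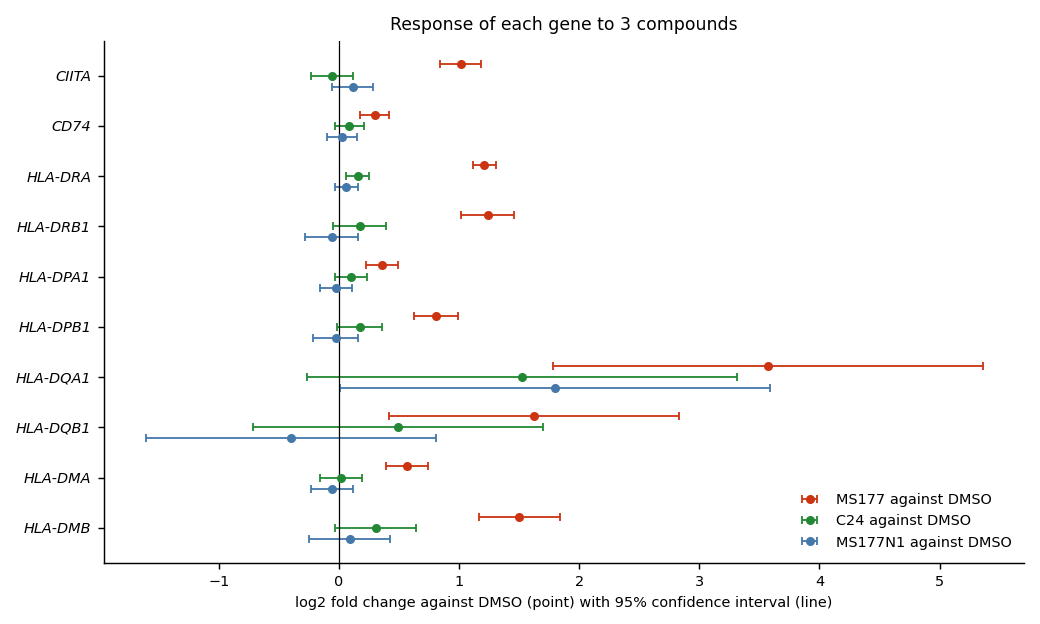
Log2 fold change against DMSO (x axis, points) with its 95% confidence interval (lines) for each gene (y axis) with MS177, C24 and MS177N1. The 10 MS177 intervals lie above 0. Those of C24 and MS177N1 include 0 except for HLA-DRA with C24 and HLA-DQA1 with MS177N1, neither of which was called, and the HLA-DQ intervals are the widest.

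Direct contrasts between the compounds covered 3 pairs. MS177 exceeded MS177N1 in 9 of 10 genes (limma adjusted p under 0.05, with 57.4% of all genes called and 28.8% called higher), by 0.90 for CIITA (SE 0.08, adjusted p = 1.33e-07), 1.15 for HLA-DRA (SE 0.04, adjusted p = 9.50e-12) and 1.41 for HLA-DMB (SE 0.16, adjusted p = 1.43e-06). HLA-DQA1 was the exception (log2 1.77, interval -0.02 to 3.56, limma adjusted p = 0.0845). It was called with the deposited values (adjusted p = 0.0131), limma voom (0.0171), a pseudocount of 5 (0.0162) and only these groups in the fit (0.00784). Against C24, MS177 was higher in 9 of 10 genes, with 58.1% of all genes called and 29.1% called higher, by 1.07 for CIITA (SE 0.08, limma adjusted p = 1.79e-08) and 1.06 for HLA-DRA (SE 0.04, adjusted p = 2.38e-11). Here HLA-DQB1 was the exception (log2 1.13, interval -0.08 to 2.34, limma adjusted p = 0.10), though it was called with limma voom (adjusted p = 0.0469) and without C24 replicate 2 (log2 1.80, adjusted p = 0.0401), and its log2 difference was 0.46 without C24 replicate 1 and 0.73 without MS177 replicate 1. HLA-DQA1 was close to the threshold (adjusted p = 0.0478, and above it without any 1 of the 4 libraries). In MS177 against MS177N1 the HLA-DQB1 call was lost without MS177 replicate 1 (limma adjusted p = 0.0684) or MS177N1 replicate 2 (adjusted p = 0.0612). Both MS177 libraries lay above both MS177N1 libraries in 39.4% of all genes and above both C24 libraries in 39.5%, and in 10 of 10 genes of the set for each. Between C24 and MS177N1 no gene was called (0 of 10, with 2 unadjusted p under 0.05, 0 calls by limma voom, and 0.0141% of all genes called). Both C24 libraries lay above both MS177N1 libraries in 6 of 10 genes, where 21.8% of all genes did so. The interval of C24 minus MS177N1 was -0.35 to 0.00 for CIITA, 0.00 to 0.19 for HLA-DRA and 0.01 to 0.38 for HLA-DPB1 on the log2 scale.

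Position was compared because 8 of the 10 genes lie together on chromosome 6. Between HLA-DRA and HLA-DPB1, 15 genes were tested, of which 7 are not in the set. Of these 7, 1 rose, 3 fell and 3 were not called with MS177, with a median log2 fold change of -0.04. Among all genes tested, 28.9% were called higher and 29.0% lower. HLA-DOB, the beta chain of the HLA-DM inhibitor HLA-DO, went from 113 ± 20.9 to 55.2 ± 5.29 normalized reads (log2 -1.01, SE 0.23, limma adjusted p = 0.00137). HLA-DOB is itself a class II gene, and it fell while the class II genes of the set rose. Of 9 further class II genes sought, 3 were listed and only HLA-DOB was tested. PSMB8, an immunoproteasome subunit, fell by 0.41 (SE 0.07) and TAP2, a class I peptide transporter chain, fell by 0.28 (SE 0.05). The chromatin reader BRD2, between HLA-DMA and HLA-DPA1, rose by 0.17 (SE 0.04). PSMB9 (-0.03, SE 0.07), TAP1 (-0.04, SE 0.05) and the antisense gene PSMB8-AS1 (0.06, SE 0.15), which shares its place with PSMB8, were not called. HLA-DOA, the alpha chain of HLA-DO, was too low to test, at 0.961 normalized reads in DMSO and 8.43 with MS177.

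**Figure D4:**
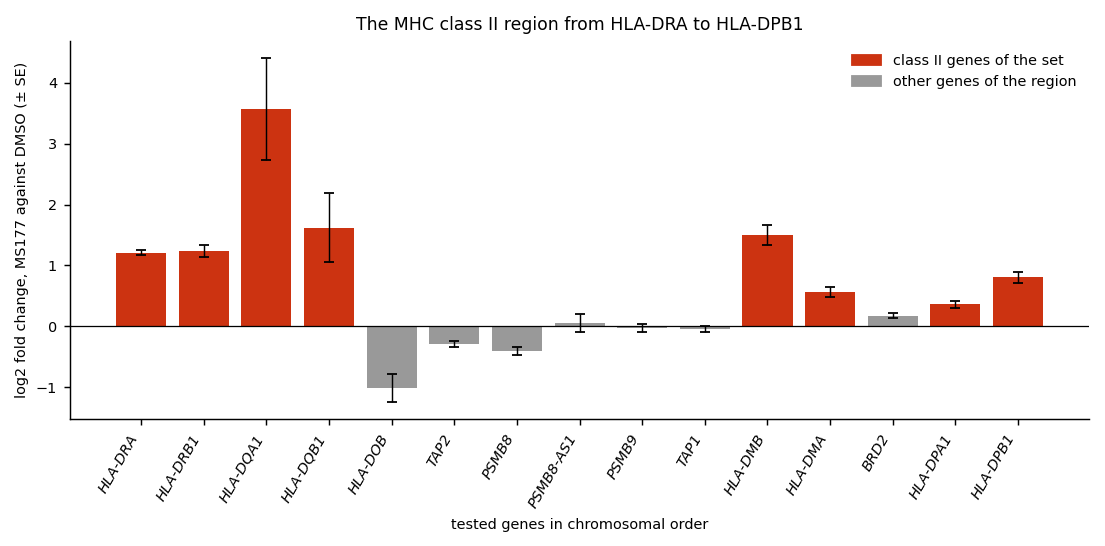
Log2 fold change of MS177 against DMSO with its SE (y axis, linear) for the 15 tested genes from HLA-DRA to HLA-DPB1 in chromosomal order (x axis). The 8 genes of the set, in red, are all above 0. The 7 others, in grey, run from -1.01 for HLA-DOB, a class II gene outside the set, to 0.17 for BRD2.

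On chromosome 16, 3 tested genes on each side of CIITA did not move in 1 direction. EMP2, a membrane protein gene, rose by 0.81 (SE 0.08), NUBP1, an iron-sulfur assembly factor, fell by 0.51 (SE 0.08) and RMI2, of the BLM helicase complex, fell by 0.24 (SE 0.08). ATF7IP2 (-0.05, SE 0.23) and CLEC16A (0.18, SE 0.08) were not called, and DEXI is given above.

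The DNA-binding partners of CIITA changed in part. Of 8 genes for RFX, NF-Y and CREB proteins, 2 rose and 1 fell with MS177 (median 0.14), with 28.9% of all genes called higher and 29.0% lower. RFXANK, the ankyrin subunit of RFX, rose from 1505 ± 83.4 to 2501 ± 143 normalized reads (log2 0.73, SE 0.07, limma adjusted p = 2.40e-07), and CREB1 rose by 0.55 (SE 0.08). RFX5, the DNA-binding subunit, fell from 3371 ± 158 to 2621 ± 60.3 (log2 -0.36, SE 0.05, limma adjusted p = 2.18e-05), and RFXAP was not called (-0.15, SE 0.19). Under total-read scaling 4 of the 8 rose and 1 fell.

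Factors known to act on CIITA also moved both ways. Of 12 tested, 6 rose and 4 fell (median 0.14), beside 28.9% of all genes called higher and 29.0% lower. BCL6, a transcriptional repressor active in germinal centre B cells, went from 13.0 ± 3.42 to 51.6 ± 6.34 normalized reads (log2 1.93, SE 0.38, limma adjusted p = 0.000444). BACH2, a B cell repressor of PRDM1, rose from 379 ± 11 to 1030 ± 11.9 (log2 1.44, SE 0.09), IRF8 from 200 ± 5.30 to 531 ± 36.9 (log2 1.40, SE 0.13), and IRF1, which acts on the interferon-responsive promoter of CIITA, from 1999 ± 21.1 to 4679 ± 180 (log2 1.23, SE 0.06). PRDM1, the repressor named above and named here for that role, fell from 6165 ± 122 to 5161 ± 400 (log2 -0.26, SE 0.05, limma adjusted p = 0.000553).

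Genes of the interferon gamma pathway, the main inducer of CIITA outside the B lineage, were called higher for 6 of 11 and lower for 2 (median 0.47). The shares over all genes tested were 28.9% higher and 29.0% lower. SOCS3, a feedback inhibitor, went from 3.85 ± 5.44 to 33.9 ± 9.62 normalized reads, and passed the filter on low counts only through the MS177 libraries, so its place in that count was set by the filter. IFNGR1, a receptor chain, rose by 0.80 (SE 0.10) and IRF9 by 0.71 (SE 0.17). The gene for interferon gamma itself was not among the genes listed.

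Endosomal processing genes, which make peptides and trim CD74, were called higher for 7 of 11 and lower for 2 (median 0.44). Over all genes tested, 28.9% were called higher and 29.0% lower. The protease gene LGMN rose from 2746 ± 171 to 5508 ± 463 normalized reads (log2 1.00, SE 0.06, limma adjusted p = 1.97e-09), CTSB by 0.78 (SE 0.05) and CTSH by 0.76 (SE 0.14), and CTSC fell by 0.81 (SE 0.05). CTSS, the protease that cuts CD74 in B cells, rose by 0.44 (SE 0.07), and is named for that role. Costimulatory and activation molecules were called higher for 8 of 11 and lower for 2 (median 0.92), beside the same shares of all genes. ICAM1, an adhesion molecule, rose from 364 ± 22.4 to 2029 ± 17.0 normalized reads (log2 2.48, SE 0.09, limma adjusted p = 8.55e-12), PDCD1LG2, a PD-1 ligand, from 28.9 ± 2.76 to 147 ± 9.16 (log2 2.31, SE 0.26), CD80 from 5.98 ± 3.78 to 25.5 ± 8.85 (log2 2.0, SE 0.71), and TNFSF9 from 217 ± 26.5 to 628 ± 50.4 (log2 1.53, SE 0.14). CD80 passed the filter only through the MS177 libraries, so its call was set in part by the filter. In each of these lists 0 genes were called with MS177N1 or C24, where 0.0353% and 0.0918% of all genes tested were called.

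MHC class I genes and NLRC5, the class I counterpart of CIITA, were counted in the same way. Of 12 tested, 3 rose and 2 fell with MS177 (median 0.05), beside 28.9% of all genes higher and 29.0% lower. HLA-F rose from 698 ± 19.5 to 1582 ± 153 normalized reads (log2 1.18, SE 0.08, limma adjusted p = 6.68e-09), and NLRC5 was not called (0.16, SE 0.13).

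Markers of other cells that carry class II were read beside these results. Of 15 markers of monocytes, macrophages and dendritic cells, 8 were listed and 6 tested. AIF1, CD163 and S100A9 passed the filter on low counts only through the MS177 libraries, so they had to differ; the other 3, CD68, ITGAM and CLEC9A, were called higher with MS177. The summed level over the 8 listed was 346 to 411 normalized reads in DMSO, 1712 to 1883 with MS177, 350 to 360 with MS177N1 and 387 to 412 with C24. Most of this was CD68, a lysosomal glycoprotein (319 ± 52.3 to 1528 ± 80.4). AIF1, a macrophage calcium-binding protein, went from 1.65 ± 2.34 to 46.8 ± 6.61 normalized reads, CD163, a macrophage scavenger receptor, from 0.481 ± 0.680 to 24.5 ± 0.234, and S100A9, a myeloid calcium-binding protein, from 8.66 ± 1.35 to 49.0 ± 12.5. CSF1R, a receptor of monocytes and macrophages, stood at 0.961 in DMSO and 1.87 with MS177, and CD14 at 8.66 and 9.97. LYZ was not among the genes listed. Over all genes tested, 28.9% were called higher and 29.0% lower with MS177. Of 5 tested B cell markers 1 rose and 3 fell. The summed level over the 7 listed was 1424 to 1562 in DMSO and 1186 to 1258 with MS177. Of 9 tested plasma-cell markers 7 fell and 1 rose, with SDC1 at 12424 ± 206 with MS177 (log2 -1.21, SE 0.04). Of 2 tested T and NK cell markers, of 8 in the list, 0 rose and 2 fell (1 under total-read scaling). The part of these genes in the class II result was not tested.

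The genes most alike in profile were sought among all tested genes outside the set, by the Euclidean distance over 8 libraries between log2 values centred on their DMSO mean. Closest to HLA-DRA was CD86, a costimulatory ligand (distance 0.083, Pearson r = 0.999 over 8 libraries), which went from 270 ± 11 to 637 ± 27.3 normalized reads. TNFAIP3, an inhibitor of NF-kB, RYBP, a PRC1 subunit, and ITGB5, an integrin chain, followed at distances of 0.146, 0.152 and 0.158. Among all genes HLA-DRB1 ranked 7 and CIITA 202 in likeness to HLA-DRA, and CD74 ranked 2991. Among the closest to CIITA were ETV3, HEIH and SPG11, at distances of 0.161, 0.162 and 0.164. The 8 libraries share 1 large contrast, MS177 against the rest, so many genes correlate highly, and the values are a description.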

How the data were processed

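RNA-seq of MM1.S cells gave 8 libraries in 4 groups of 2. The authors deposited 1 normalized value per gene and library, on a log2 scale. Tools named in the submitters' processing notes are STAR 2.4.2, Salmon 0.1.19 and DESeq2 1.38.2, and the build is hg19; what each was used for is not given in the sources used here. The values have the form of a variance-stabilizing transformation with a shared minimum of 5.967655733 at 0 reads. It was inverted, and all 130360 recovered values were whole reads within 0.01. A gene was tested if 2 or more libraries reached a level of 10 reads (scaled to the median library) and its reads summed to 15 or more, which kept 14164 genes and left out 2131. The log2 of (reads over size factor + 1) entered limma 3.58.1 under R 4.3.3, with a trend, robust variances (statmod 1.5.0), all groups in 1 fit and 6 contrasts. Benjamini-Hochberg adjustment ran over all genes tested in each contrast, with calls at an adjusted p under 0.05. Each library held 20000665 to 26619099 reads, and the median SE of a log2 fold change, MS177 against DMSO, was 0.107. The fit was tested on simulated data.

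The members and lists were chosen with earlier results of these data known, and the motif letters and gap with the promoters in view. All 10 members are described. Of other lists, genes called were counted and up to 4 named by the size of change with MS177; exceptions are marked. Some genes that this rule names are not reported here. Of the PRC2, surface partner and B, T and plasma-cell lists only some members are named. Levels per kilobase use the median length of protein-coding transcripts with a CCDS entry in GENCODE 29 (GRCh38), which is not the authors' build. Alternatives were the deposited values, voom weights, total-read and upper-quartile scaling, pseudocounts of 0.5 and 5, no filter, 2 groups only, the robust option off, the replicate number as a block, and each library left out.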

Additional observations from a re-analysis of the deposited data

How the results depend on the processing

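All 10 genes were called higher in MS177 against DMSO under every alternative but 2 (9 without DMSO replicate 1 and 9 without MS177 replicate 1, HLA-DQB1 lost in each). No gene of the set changed direction where it was called, in any comparison or alternative. Of the log2 fold changes of single genes under alternatives, 823 kept their side of the threshold, 11 lost a call and 6 gained one, all in HLA-DQA1 or HLA-DQB1. For HLA-DQA1 in MS177 against C24 the call was lost with upper-quartile scaling, a pseudocount of 0.5, the robust option off, and without each of the 4 libraries. In MS177 against DMSO the log2 fold change of HLA-DQA1 was 2.27 with a pseudocount of 5 and 0.78 on the deposited values, and that of HLA-DQB1 was 0.45 on the deposited values, whose scale compresses low counts. For the 8 other genes it moved by over 1.5 times under no alternative run.

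Counts over all genes moved where few genes were called. In MS177N1 against DMSO the 5 calls became 8 on the deposited values, 8 with voom, 3 with total-read scaling, 9 with a pseudocount of 5, 1 with the robust option off, 11 with the replicate block and 17 with only these groups, and 0 to 4 with 1 library left out. In C24 against DMSO the 13 calls became 20 with the replicate block and 10 to 13 with 1 library left out. In C24 against MS177N1 the 2 calls became 1 with a pseudocount of 5, 28 with only these groups, and 0 to 2 with 1 library left out. The cause was not tested. Deviations of libraries with the same replicate number hardly correlated between groups (-0.0621 to 0.0602), which does not settle whether libraries were paired. With the replicate block 10 genes of the set were called in MS177 against DMSO. Depth limits HLA-DQA1, HLA-DQB1 and HLA-DOA, which hold too few reads for a fold to be precise.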

Other observations

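Surface partners of class II and CD74 moved both ways with MS177, with 3 of 9 tested genes higher and 4 lower. The shares of all genes tested were 28.9% higher and 29.0% lower. CD63 and CD82, tetraspanins of class II compartments, rose by 0.86 (SE 0.08) and 0.86 (SE 0.06), while CD37 and CD53, tetraspanins of leukocytes, fell by 0.72 (SE 0.12) and 0.49 (SE 0.07). MIF, a ligand of CD74, fell from 23436 ± 1074 to 15029 ± 1503 normalized reads (log2 -0.64, SE 0.06, limma adjusted p = 1.94e-06), and CD44, which signals with CD74, was not called (0.01, SE 0.05). CD81 went from 23.3 ± 4.40 to 5.15 ± 3.32 normalized reads, and passed the filter on low counts only through the libraries without MS177.

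Of 11 PRC2 genes 6 fell and 3 rose with MS177, beside 29.0% of all genes called lower and 28.9% higher. Under total-read scaling 4 of the PRC2 genes fell and 4 rose. EZH2, the target of the compounds, was called in neither direction (log2 0.09, SE 0.05). PHF1, an accessory subunit, rose by 0.89 (SE 0.09) and EZH1 by 0.83 (SE 0.09), and EED, a core subunit, fell by 0.57 (SE 0.08).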
